A study of Mus musculus with 8 samples.

Results

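The muscle acetylcholine receptor (AChR) subunits are 5 genes, *Chrna1*, *Chrnb1*, *Chrnd*, *Chrng* and *Chrne*, picked by symbol from the 19465 genes that the spatial probe set measures. Their transcripts were counted in 8 en face sections of embryonic mouse diaphragm on 10x Genomics Visium slides, where each 55 µm spot covers several cells or parts of them. Controls were cut at E14.5 (3 sections) and E18.5 (2 sections), and kept at least 1 working allele of CaV1.1 and of β-catenin, so that some may have been heterozygous. The dysgenic mutant (CaV1.1 -/-, below CaV1.1 KO) lacks the voltage sensor of excitation-contraction coupling in every cell and was cut at E14.5 and at E18.5, with 1 section each. The β-cat cKO, cut at E18.5 in 1 section, lacks β-catenin in skeletal muscle only, because the floxed gene is removed by Cre under the human skeletal actin promoter. By the crosses that the paper gives, the cKO may have been heterozygous for CaV1.1. The KO may have carried floxed β-catenin and lacked an allele of it in muscle. Each mutant group is thus 1 section of 1 diaphragm, and its p-values rest on the spread between the control sections.

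The AChR of skeletal muscle is a pentameric ion channel that opens when acetylcholine from the motor axon binds at the interfaces of its α1 subunits with δ and with γ or ε. Fetal receptors carry γ and adult receptors carry ε, and the exchange shortens channel opening. Before the axon arrives the genes are transcribed along much of the fiber, and MuSK and LRP4 already gather receptors in its middle. Agrin from the axon then acts through LRP4 and MuSK to cluster receptors with rapsyn and to keep transcription in the nuclei beneath the synapse, and electrical activity of the fiber represses transcription elsewhere. In the diaphragm the synapses form a narrow band along the middle of the muscle.

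The members lie on 3 chromosomes of GRCm38. *Chrna1* (ENSMUSG00000027107, chromosome 2:73563281-73580338) encodes the ligand-binding α1 subunit. *Chrnb1* (ENSMUSG00000041189, chromosome 11:69784036-69795966) encodes β1, which binds rapsyn. *Chrnd* (ENSMUSG00000026251, chromosome 1:87190597-87200070) and *Chrng* (ENSMUSG00000026253, chromosome 1:87205811-87211835) are neighbors with 5740 bases between them, and encode δ and the fetal γ subunit. *Chrne* (ENSMUSG00000014609, chromosome 11:70614883-70619213) encodes the adult ε subunit. *Chrna1* overlaps the annotated gene *Gm30940* and *Chrne* overlaps *4930544D05Rik*. Promoters are shown to set those of *Chrng* and *Chrne*, which take the same place in the receptor and moved in opposite directions with age, beside the others. RefSeq promoters on GRCm38.p6 matched 4 of the 5 members, and the 250 bases before each start are printed 5′ to 3′, with capitals for E-boxes (CANNTG, read on both strands, the motif bound by the myogenic factors of the MyoD family) and for N-boxes (TTCCGG on either strand, the motif that ETS factors such as GABP bind in synaptic genes).
Chrna1, chr2:73580339-73580588, minus strand: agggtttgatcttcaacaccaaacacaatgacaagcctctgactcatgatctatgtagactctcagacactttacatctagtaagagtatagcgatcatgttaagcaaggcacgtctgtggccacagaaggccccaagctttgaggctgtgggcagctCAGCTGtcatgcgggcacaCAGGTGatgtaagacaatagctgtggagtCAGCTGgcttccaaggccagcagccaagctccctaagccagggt
Chrnb1, chr11:69795938-69796187, minus strand: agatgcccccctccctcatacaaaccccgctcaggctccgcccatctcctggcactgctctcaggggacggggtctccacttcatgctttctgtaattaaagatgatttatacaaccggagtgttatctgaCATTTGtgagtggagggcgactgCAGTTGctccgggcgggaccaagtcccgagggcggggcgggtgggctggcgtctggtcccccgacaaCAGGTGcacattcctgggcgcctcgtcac
Chrng, chr1:87205561-87205810, plus strand: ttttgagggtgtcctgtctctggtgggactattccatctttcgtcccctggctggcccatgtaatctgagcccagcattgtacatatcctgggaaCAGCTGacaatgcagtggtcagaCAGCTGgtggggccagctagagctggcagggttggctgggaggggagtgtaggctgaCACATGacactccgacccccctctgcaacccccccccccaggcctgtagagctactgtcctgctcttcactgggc
Chrne, chr11:70619195-70619444, minus strand: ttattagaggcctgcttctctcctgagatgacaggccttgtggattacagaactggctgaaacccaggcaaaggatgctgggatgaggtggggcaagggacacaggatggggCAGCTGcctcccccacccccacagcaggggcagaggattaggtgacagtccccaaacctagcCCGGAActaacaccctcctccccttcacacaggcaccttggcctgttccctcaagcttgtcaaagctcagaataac
*Chrna1*, *Chrnb1* and *Chrng* held 3 E-boxes each, of which 2 read CAGCTG in *Chrna1* and in *Chrng*. *Chrne* held 1 E-box and, 76 bases before its start, the only N-box of the 4 windows. No E-box overlapped the N-box. For *Chrnb1* and *Chrne* the promoter start used here lies inside the gene span given above. The last E-box of *Chrnb1*, 29 bases before that start, falls within the span. Of all 32851 promoter windows of this length 66.2% held an E-box, 12.2% held at least 3 of them and 12.03% held an N-box. These matches describe letters in a window, not binding.

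The sections held between 14179161 and 82859104 UMIs (distinct transcript molecules), with a median of 15434 to 45284 per spot. Muscle spots were those with high levels of 9 muscle genes such as *Ttn* (titin), *Neb* (nebulin) and *Des* (desmin), between 491 and 3092 per section. In the CaV1.1 KO muscle *Cacna1s*, which encodes CaV1.1, stood at 13.4 CPM at E14.5 against 16.5, 14.96 and 18.4 in the controls, and at 29.7 against 84.4 and 87.3 at E18.5. *Ctnnb1* (β-catenin) stood at 96.2 in the section labelled β-cat cKO against 105 and 97.4, a difference that did not pass the test (log2 fold change -0.07, edgeR adjusted p = 0.773). Whether the probes lie in the mutated or removed part of either gene was not tested, and the spots also hold cells that keep β-catenin. All 9 muscle genes were detected in every section, and together took 2.16% to 2.74% of the muscle UMIs in the E14.5 controls, 1.62% in the KO at E14.5, 12.8% and 13.2% in the E18.5 controls, 7.14% in the KO at E18.5 and 10.52% in the β-cat cKO. In the muscle spots, fewer muscle fibers per spot and less RNA per fiber cannot be told apart. Levels below are UMIs relative to the total of the summed spots (CPM), scaled by TMM (trimmed mean of M values), which sets the bulk of genes equal between sections, and they compare sections for 1 gene, not genes with each other, since the number of probes differs between genes.

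Relative to the bulk of genes, *Chrng*, *Chrna1* and *Chrnd* fell and *Chrne* and *Chrnb1* rose in control muscle between E14.5 and E18.5. The embryos of a group are separate, and p-values measure the spread between their sections, with an estimate of spread that is shared over genes. Of the E14.5 controls only control 3 was made with the same Space Ranger version as the E18.5 sections. Stage and software version thus largely go together, and the part of the version in these differences was not tested. *Chrng* stood at 423, 306 and 346 CPM in the 3 E14.5 sections and at 119 and 103 in the 2 E18.5 sections, with no overlap. That is 3.23-fold lower (log2 fold change -1.69, SE 0.15, edgeR adjusted p = 1.74e-05). *Chrne* was near the limit of detection at E14.5, with 19, 25 and 13 UMIs or 0.802, 0.695 and 0.817 CPM, and reached 294 and 260 UMIs or 5.34 and 5.65 CPM at E18.5. It was 7.17-fold higher (log2 fold change 2.84, SE 0.20, edgeR adjusted p = 3.43e-06). *Chrna1* fell from 227, 172 and 217 CPM to 116 and 114, which is 1.78-fold (log2 fold change -0.83, SE 0.13, edgeR adjusted p = 0.000406). *Chrnb1* went the other way and rose from 110, 94.8 and 120 CPM to 157 and 171 (1.52-fold, log2 fold change 0.60, SE 0.11, edgeR adjusted p = 0.00114). Without TMM scaling the stages overlapped for *Chrnb1*, with 126, 116 and 149 CPM at E14.5 and 114 and 125 at E18.5. *Chrnd* had the smallest difference, 143, 103 and 126 against 94.7 and 92.4 CPM (log2 fold change -0.40, SE 0.13, edgeR adjusted p = 0.0257), and only 6 of 13 alternatives called it. All 5 members passed the test, 3 lower and 2 higher, as did 65.7% of all 14832 genes in either direction. Scaled to the 9 muscle genes instead, the median of all genes fell by 3.19 on the log2 scale and *Chrnb1* and *Chrne* turned to -2.58 and -0.33; relative to that median they stood at 0.61 and 2.86. Changes below are therefore relative to the bulk of genes.

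**Figure D1:**
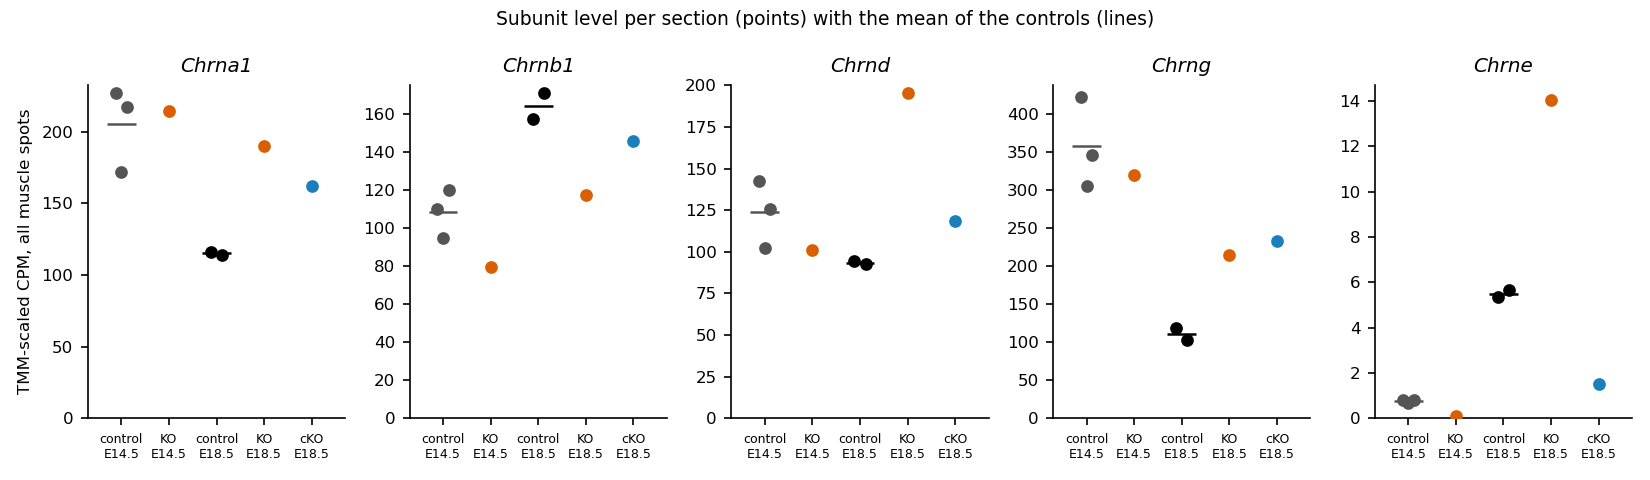
Level of each subunit in all muscle spots (y axis, TMM-scaled CPM, linear from 0), with 1 point per section in each of the 5 groups (x axis; KO, CaV1.1 KO; cKO, β-cat cKO) and a line at the mean of the controls of a stage. *Chrng* stands at 306 to 423 CPM in the E14.5 controls and at 103 and 119 in the E18.5 controls, and *Chrne* reaches 14.0 CPM in the KO at E18.5.

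The muscle center was defined without any AChR subunit, from the spots of muscle that scored in the top 15% for *Musk*, *Ache*, *Etv5*, *Prkar1a* and *Ufsp1*, genes transcribed at the synapse. From these same sections the paper reports *Musk*, *Etv5*, *Prkar1a* and *Ache* as correlated with *Chrna1*, and *Ufsp1* as a marker of the E14.5 center. Higher *Chrna1* in the center, and higher levels of members that vary with it, thus partly follow from the choice of score genes. The p-values of the center tests do not measure that part. Spots were ranked within each section, so the center of a mutant section is its own top 15%. In the KO at E14.5 the score genes *Ache* and *Ufsp1* changed by -1.55 and -1.33 on the log2 scale. *Musk* changed by 0.54 in the KO at E18.5 and *Ache* by -0.82 in the β-cat cKO. Whether the center marks the same region in mutants and controls was not tested. The center held 48.7% and 51.1% of the *Chrna1* UMIs of the muscle in the E18.5 controls, against 28.2%, 28.4% and 22.4% in the E14.5 controls, while it held 15.7% to 17.0% of all UMIs in these 5 sections. For *Chrnd* the shares were 41.2% and 42.9% against 26.7%, 29.0% and 21.2%. For *Chrng* they were 30.2% and 31.8% against 24.3%, 26.4% and 19.7%. *Chrne* was the most central at E18.5, with 70.4% (95% exact Clopper-Pearson interval 64.8% to 75.6%, counting error only) and 72.3% (66.4% to 77.7%). *Chrnb1* was spread nearly evenly, with 18.7% and 18.4% at E18.5 and 21.1%, 20.6% and 16.1% at E14.5.

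With TMM scaling *Chrna1* fell with age outside the center, and in the center its levels at the 2 stages overlapped. Center spots stood at 381, 312 and 312 CPM at E14.5 and at 332 and 346 at E18.5, which did not pass the test (log2 fold change -0.01, SE 0.12, edgeR adjusted p = 0.929). The other muscle spots stood at 195, 146 and 200 against 72.1 and 67.3 CPM, 2.59-fold lower (log2 fold change -1.37, SE 0.14, edgeR adjusted p = 4.61e-05). *Chrnd* also fell only outside the center by this test, with 227, 190 and 171 against 229 and 236 CPM in the center (log2 fold change 0.21, edgeR adjusted p = 0.133) and 125, 86.9 and 118 against 67.4 and 63.8 outside it (-0.74, edgeR adjusted p = 0.00288). *Chrng* fell in both places, from 613, 517 and 437 to 210 and 194 CPM in the center (log2 fold change -1.40, edgeR adjusted p = 1.14e-07) and from 383, 268 and 330 to 100.2 and 84.9 outside it (-1.82, edgeR adjusted p = 2e-05). *Chrne* rose in both, to 22.1 and 24.3 CPM in the center and 1.91 and 1.89 outside it. *Chrnb1* rose in both as well, by 0.44 in the center and 0.63 outside it on the log2 scale (edgeR adjusted p = 0.00141 and 0.00151). These fits within the center and outside it were added after the data were seen. They were run with TMM scaling only. Without it *Chrna1* was lower at E18.5 in the center too (432, 368 and 386 against 259 and 264 CPM). So was *Chrnd* (257, 225 and 211 against 179 and 180), in both cases with no overlap. *Chrnb1* without it was lower at E18.5 in the center (157, 148 and 153 against 135 and 143) and overlapped outside it (120, 110 and 148 against 110.5 and 122).

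Tested against the other muscle spots of the same section, all 5 members were higher in the center in the controls of either stage. At E14.5 the folds were 1.90 for *Chrna1* (edgeR adjusted p = 3.01e-06), 1.27 for *Chrnb1* (1.89e-07), 1.85 for *Chrnd* (0.00598), 1.63 for *Chrng* (0.0301) and 2.60 for *Chrne* (0.0203), where 7.98% of the 14314 genes tested were called higher in the center. At E18.5 they were 4.86 for *Chrna1* (edgeR adjusted p = 3.66e-09), 3.54 for *Chrnd* (0.000469), 2.19 for *Chrng* (0.0196), 12.1 for *Chrne* (1.87e-51) and 1.11 for *Chrnb1* (0.0212), with 4.41% of genes called higher. Of 13 alternatives 10 called *Chrng* and 7 called *Chrnb1* at E18.5, and with the center set by position alone *Chrng* stood at 0.062 on the log2 scale (edgeR adjusted p = 0.78). *Chrne* at E14.5 rests on 9, 8 and 2 UMIs in the center and 10, 17 and 11 outside it, and was higher in the center in 2 of 3 sections. Center spots also held more UMIs of the 9 muscle genes than the other muscle spots at E14.5 (2.93% against 2.70%, 2.51% against 2.10% and 2.47% against 2.26%). At E18.5 they held fewer (11.8% against 13.0% and 12.6% against 13.3%). The part of this in the folds of the members was not tested. Without E14.5 control 1 only 2 of the 5 members were called at E14.5. The enrichment itself was larger at E18.5 than at E14.5 for *Chrna1* (difference of log2 folds 1.36, SE 0.10, edgeR adjusted p = 5.64e-06), *Chrnd* (0.94, SE 0.16, 0.0224) and *Chrne* (2.22, SE 0.44, 3.93e-05), and the difference did not pass for *Chrng* (0.43, SE 0.18, 0.299) or *Chrnb1* (-0.20, SE 0.07, 0.0534). Of all genes 12.7% passed this test in either direction. The center was also set by position alone, from the distance to spots outside muscle. Then 0 of the 5 differences passed at an adjusted edgeR p, beside 24 of 14515 genes higher and 45 lower. Those of *Chrnd*, *Chrng* and *Chrne* turned to -0.0077, -0.36 and -0.37. Wherever it is used, that center is a far larger share of the muscle spots than the top 15%, so the 2 centers do not compare like with like.

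**Figure D2:**
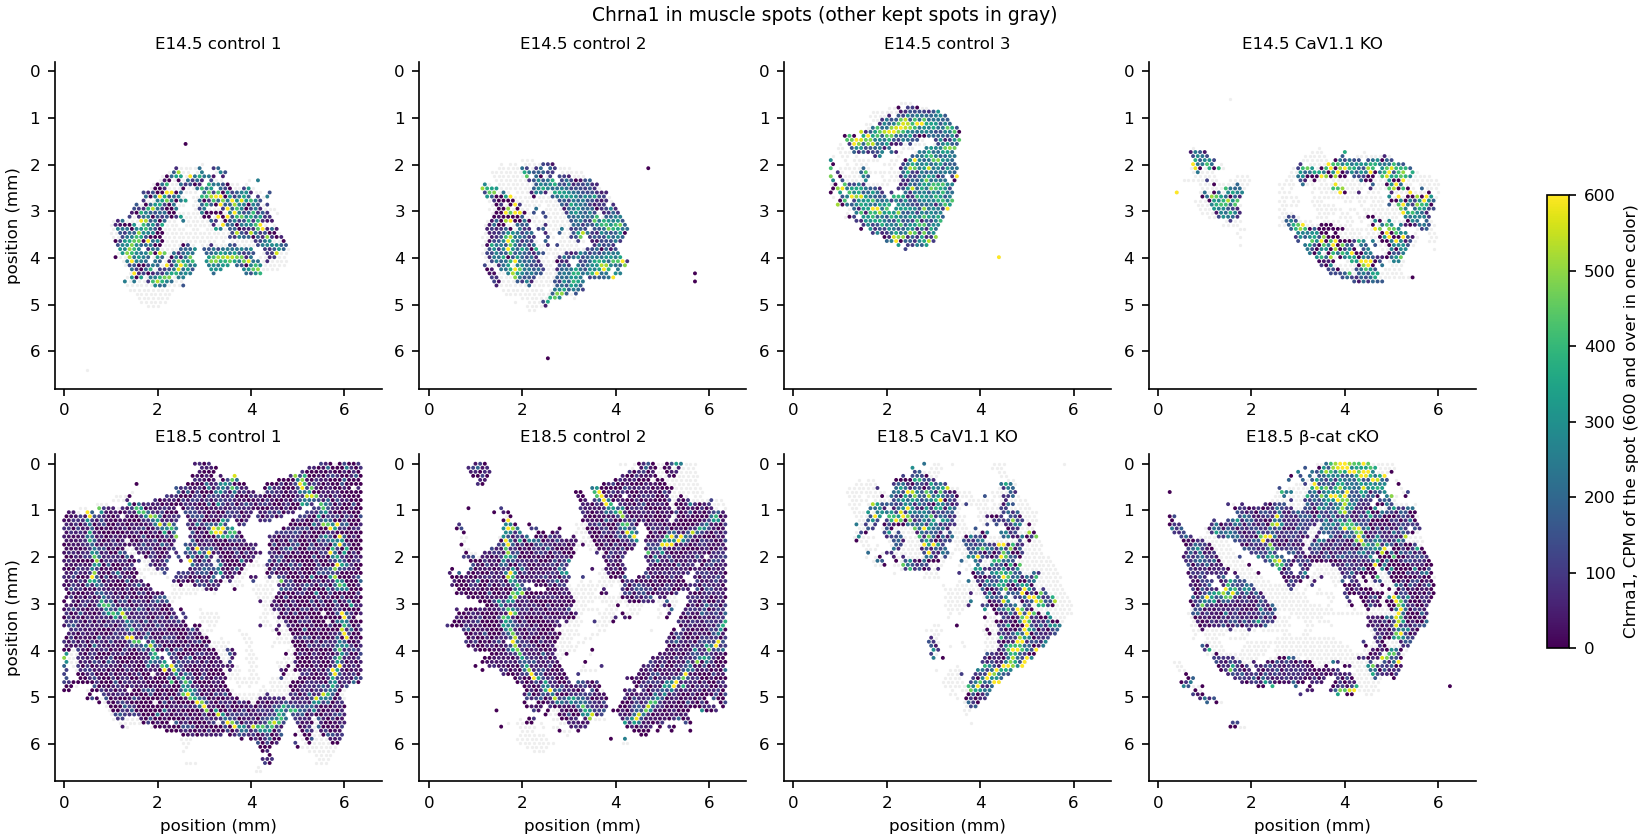
*Chrna1* in the muscle spots of the 8 sections (both axes, position in mm; color, CPM of the spot, with 600 and over in one color; kept spots that are not muscle in gray). In the E18.5 controls the high spots form a thin band along the middle of the muscle, in the E14.5 sections they are scattered through the muscle, the KO at E18.5 has a broader band at the right of the section and scattered high spots elsewhere, and the β-cat cKO shows a band and a block of high spots at the upper edge.

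**Figure D3:**
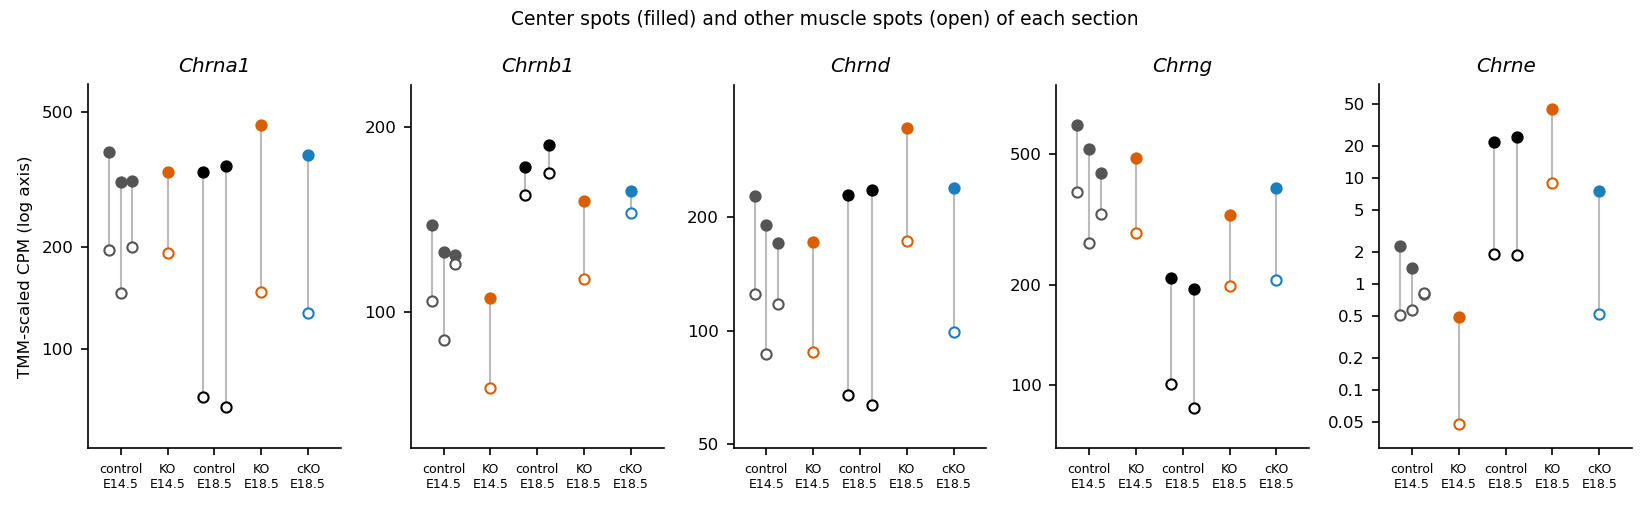
TMM-scaled CPM (y axis, log scale) in center spots (filled) and in the other muscle spots (open) of each section, joined by a line, in the 5 groups (x axis; KO, CaV1.1 KO; cKO, β-cat cKO). *Chrna1* stands at 312 to 381 CPM in the center of the E14.5 controls and 332 and 346 at E18.5, while the other muscle spots go from 146 to 200 down to 67.3 and 72.1.

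At E14.5 *Chrne* was the 1 subunit that passed the test in the CaV1.1 KO. *Chrna1* stood at 214 CPM in the KO against 172 to 227 in the controls, *Chrnd* at 101.0 against 103 to 143, *Chrng* at 320 against 306 to 423 and *Chrnb1* at 79.7 against 94.8 to 120. These 4 did not pass, with edgeR adjusted p of 0.9, 0.448, 0.722 and 0.168 in that order. *Chrne* was called lower (log2 fold change -2.64, SE 0.44, edgeR adjusted p = 0.0191), on 3 UMIs in the KO against 57 in the 3 controls together, a ratio of 0.160 with an exact interval of 0.0320 to 0.491 for counting error. The call was lost with DESeq2, with the replicate number as a block, in center spots alone and without E14.5 control 3. That control was made with the Space Ranger version of the E18.5 sections. The KO at E14.5 and E14.5 controls 1 and 2 were made with the other version, and its part in the call was not tested. The 1 of 5 members called stands beside 2.80% of all genes called in either direction. *Chrna1* was 1.73-fold and *Chrnb1* 1.40-fold higher in the center of this KO section (edgeR adjusted p = 0.00168 and 0.000187), and the other 3 did not pass, where 4.82% of all genes were called higher. The enrichment differed from that of the controls for 0 of 5 members by edgeR, with 0 at an unadjusted p under 0.05 and 0 by DESeq2, against 0.119% of all genes in either direction.

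At E18.5 the CaV1.1 KO held more *Chrna1*, *Chrnd*, *Chrng* and *Chrne*. *Chrnd* stood at 195 CPM against 94.7 and 92.4, 2.09-fold higher (log2 fold change 1.06, SE 0.17, edgeR adjusted p = 0.00351). *Chrng* stood at 215 against 119 and 103, 1.94-fold higher (0.96, SE 0.19, edgeR adjusted p = 0.00785). *Chrna1* stood at 190 against 116 and 114, 1.65-fold higher (0.72, SE 0.17, edgeR adjusted p = 0.0133). *Chrne* stood at 14.0 against 5.34 and 5.65, 2.55-fold higher (1.35, SE 0.23, edgeR adjusted p = 0.00414). For all 4 the KO section lay above both controls. *Chrnb1* went down, to 117 CPM against 157 and 171 (-0.48, SE 0.15, edgeR adjusted p = 0.0457), which 6 of 13 alternatives called in either direction and which turned to 0.92 when scaled to muscle genes, where the median of all genes rose by 1.40. Without TMM scaling *Chrnb1* stood at 124 CPM in the KO, between the 114 and 125 of the controls. All 5 members were called, as were 26.9% of all genes in either direction. In these muscle spots the 4 Schwann cell genes listed were all detected and summed to 98.3 CPM in the KO against 23.0 and 22.1, and the 3 smooth muscle genes to 189 against 306 and 311; their part in the result was not tested.

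The folds were larger outside the center than in it. The other muscle spots of the KO held 147 CPM of *Chrna1* against 72.1 and 67.3 (2.10-fold, edgeR adjusted p = 0.00413), 172 of *Chrnd* against 67.4 and 63.8 (2.62-fold, 0.00243), 198 of *Chrng* against 100.2 and 84.9 (2.13-fold, 0.00597) and 8.91 of *Chrne* against 1.91 and 1.89 (4.66-fold, 0.00315). In the center the same genes stood at 456, 344, 328 and 45.0 CPM, with folds of 1.37 (edgeR adjusted p = 0.0638), 1.51 (0.0182), 1.65 (0.0103) and 1.98 (0.0119). The center held 34.6% of *Chrna1*, 25.4% of *Chrnd*, 22.0% of *Chrng*, 46.3% of *Chrne* and 18.6% of *Chrnb1* UMIs in the KO, and 14.9% of all UMIs. Within the KO *Chrna1* was 3.10-fold, *Chrnb1* 1.34-fold and *Chrne* 5.05-fold higher in the center (edgeR adjusted p = 2.97e-05, 0.00534 and 5.14e-17), and 1.78% of all genes were called higher there. The enrichment was smaller than in the controls for *Chrne* (difference of log2 folds -1.26, SE 0.25, edgeR adjusted p = 0.000655). For *Chrna1* (-0.65, SE 0.15, 0.0617) and *Chrnd* (-0.83, SE 0.22, 0.238) the difference did not pass, although 9 of 13 and 6 of 12 alternatives called it. The 1 of 5 stands beside 2.09% of all genes in either direction. With the larger center set by position alone the difference was -0.26 for *Chrne*. No member was called there, beside 54 of 14515 genes higher and 134 lower.

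The KO effect differed between the stages for *Chrnd*, *Chrng* and *Chrne*. The effect at E18.5 exceeded that at E14.5 by 1.35 (SE 0.24, edgeR adjusted p = 0.0205), 1.12 (SE 0.27, 0.0409) and 3.99 (SE 0.49, 0.0102) on the log2 scale, and *Chrna1* (0.66, SE 0.23, 0.111) and *Chrnb1* (-0.04, SE 0.21, 0.925) did not pass. The 3 of 5 stand beside 8.20% of all genes in either direction. Without E14.5 control 3 only 1 member was called, and 0 in center spots alone and 0 with the replicate number as a block. Center spots alone called 135 of 12848 genes higher and 226 lower, and that block called 0 of 14832 genes.

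In the β-cat cKO the fetal subunit was higher and the adult subunit lower than in the E18.5 controls. *Chrng* stood at 234 CPM against 119 and 103 (2.11-fold, log2 fold change 1.08, SE 0.19, edgeR adjusted p = 0.0108). *Chrne* stood at 1.52 CPM, from 62 UMIs, against 5.34 and 5.65, which is 3.62-fold lower (log2 fold change -1.85, SE 0.27, edgeR adjusted p = 0.00506). All 15 alternatives called both, in the same directions. The 3 smooth muscle genes listed summed to 559 CPM in these muscle spots against 306 and 311, the 4 Schwann cell genes to 21.0 against 23.0 and 22.1, and their part in the result was not tested. *Chrna1* at 162 CPM, *Chrnd* at 119 and *Chrnb1* at 146 did not pass (log2 fold changes 0.49, 0.34 and -0.17, edgeR adjusted p = 0.1, 0.258 and 0.52). Called were 2 of 5 members and 10.0% of all genes in either direction.

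Both changes held inside and outside the center. *Chrng* was 1.97-fold higher in center spots (396 against 210 and 194 CPM, edgeR adjusted p = 0.00138) and 2.24-fold higher outside them (208 against 100.2 and 84.9, 0.0112). *Chrne* was 3.06-fold lower in center spots (7.50 against 22.1 and 24.3 CPM, edgeR adjusted p = 0.00149) and 3.65-fold lower outside them (0.517 against 1.91 and 1.89, 0.0312). *Chrna1* differed outside the center only by this test, with 128 against 72.1 and 67.3 CPM there (1.83-fold, edgeR adjusted p = 0.0219) and 372 against 332 and 346 in the center (1.103-fold, 0.659). A block of 203 of the 1577 muscle spots at the upper edge of the section, seen on the map and picked out for its high *Chrna1*, held 304 CPM, without TMM scaling, of *Chrna1* and 353 of *Chrng* against 116 and 178 in the rest, with 7.92% UMIs of the muscle genes against 10.9%. Without it *Chrng* and *Chrne* were still called in muscle as a whole (0.95 and -1.73, edgeR adjusted p = 0.021 and 0.00789), and *Chrna1* outside the center was not (0.61, edgeR adjusted p = 0.0817).

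Within the β-cat cKO *Chrna1* was 2.92-fold, *Chrnd* 2.40-fold and *Chrne* 14.3-fold higher in the center (edgeR adjusted p = 1.32e-05, 0.0312 and 4.15e-14), where 1.30% of all genes were called higher. The center held 33.0% of *Chrna1*, 28.8% of *Chrnd*, 24.3% of *Chrng*, 71.0% of *Chrne* and 15.5% of *Chrnb1* UMIs, and 13.8% of all UMIs. The enrichment differed from the controls for 0 of 5 members by edgeR, against 0.475% of all genes in either direction. The lowest adjusted p was that of *Chrna1* (difference of log2 folds -0.74, SE 0.14, edgeR adjusted p = 0.0543), 2 members had an unadjusted p under 0.05, and DESeq2 called 1. Of 14 alternatives 9 called the difference of *Chrna1* and 6 that of *Chrnd*.

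Since γ and ε take the same place in the receptor, the *Chrne* part of the *Chrng* and *Chrne* UMIs follows the exchange within a section, whatever the scaling between sections. The share is one of probe counts, not of transcripts. In E14.5 control muscle it was 0.189%, 0.227% and 0.236%, and in E18.5 control muscle 4.31% (95% exact interval 3.84% to 4.82%) and 5.199% (4.600% to 5.85%). In the KO at E14.5 it was 0.0374% (0.00771% to 0.109%), below the intervals of all 3 controls. The KO at E18.5 had 6.12% (5.40% to 6.92%), and in the β-cat cKO it was 0.645% (0.495% to 0.825%), between the controls of the 2 stages. In the center the share was 9.51% (8.31% to 10.8%) and 11.1% (9.64% to 12.7%) in the E18.5 controls, 12.1% (10.1% to 14.4%) in the KO and 1.86% (1.36% to 2.49%) in the β-cat cKO. Outside it the shares were 1.87% (1.502% to 2.30%) and 2.18% (1.71% to 2.73%), 4.30% (3.60% to 5.08%) and 0.248% (0.147% to 0.392%). In the center the interval of the KO at E18.5 overlapped those of both controls, and outside it lay above them. The β-cat cKO lay below both controls in both places.

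**Figure D4:**
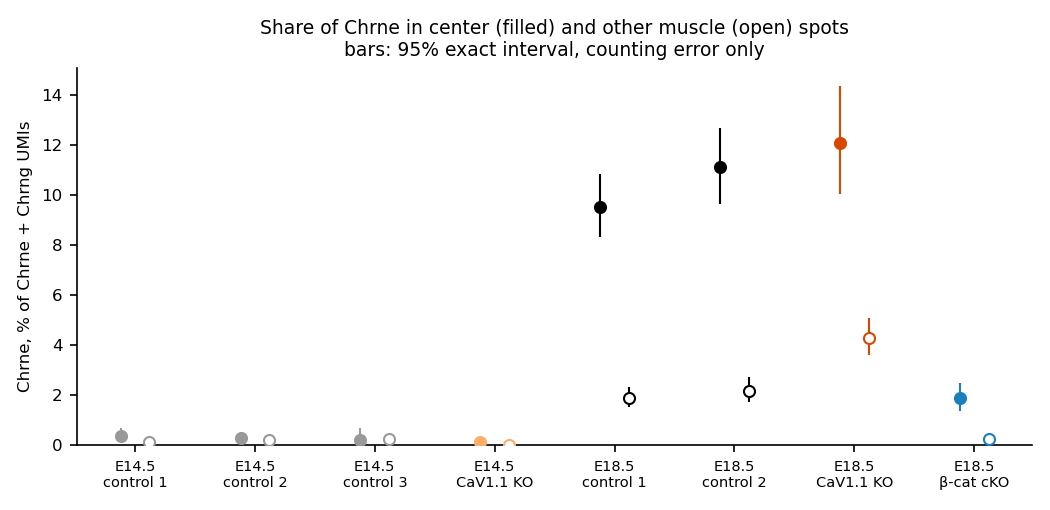
*Chrne* as a percent of *Chrne* and *Chrng* UMIs (y axis, linear from 0) in center spots (filled) and the other muscle spots (open) of the 8 sections (x axis), with 95% exact intervals for counting error. The E18.5 controls stand at 9.51% and 11.1% in the center, the KO at 12.1% and the β-cat cKO at 1.86%.

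The subunits differed in how steeply they fell away from the center. In E18.5 control 1 *Chrna1* went from 259 CPM (here without TMM scaling) in center spots to 64.4 in muscle spots up to 100 µm away, the next spot, and to 45.0 beyond 400 µm. In E18.5 control 2 the same values were 264, 63.0 and 45.1. *Chrne* went from 17.2 and 18.54 to 3.02 and 2.28 at the next spot. *Chrng* fell less, from 164 and 148 to 81.9 and 70.9, and *Chrnb1* least, from 135 and 143 to 112 and 121. At E14.5 the fall was gradual: *Chrna1* in control 2 went from 368 through 234, 179 and 134 to 118 beyond 400 µm, and *Chrng* from 611 through 424, 356 and 245 to 167. In the KO at E18.5 *Chrna1* stood at 468 in the center, 180 at the next spot and 148 beyond 400 µm, and *Chrnd* at 353, 211 and 151. In the β-cat cKO *Chrna1* stood at 328, 134 and 96.9. These profiles have no test, and the spots of a section are not replicates.

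**Figure D5:**
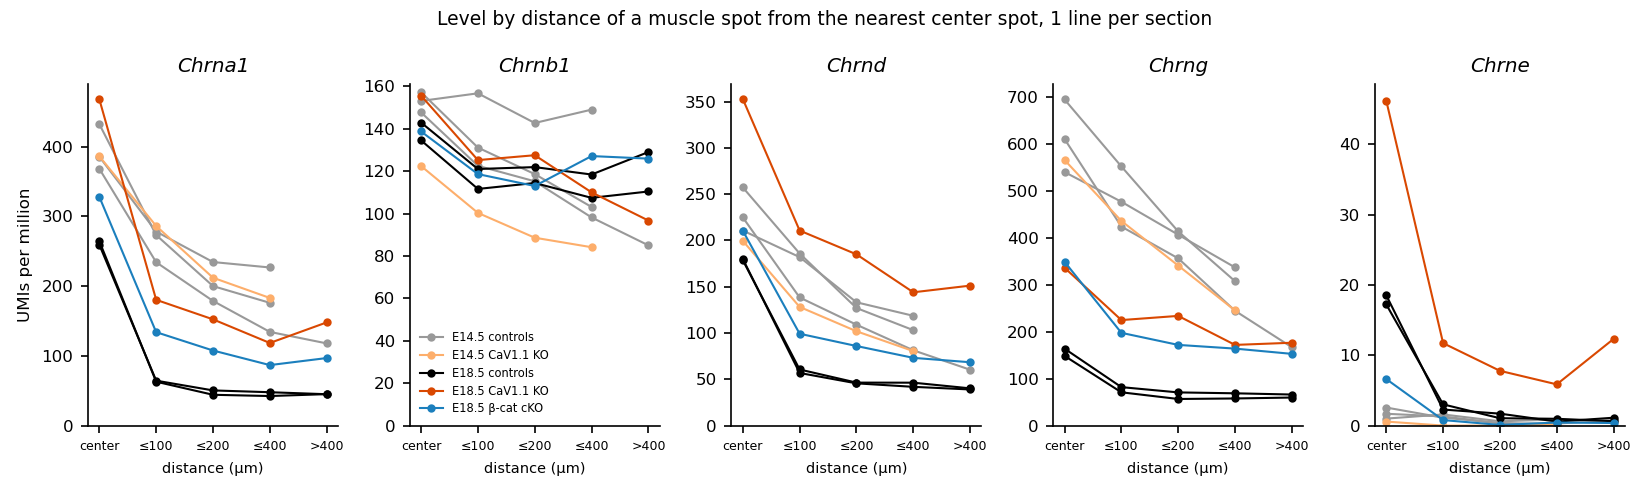
CPM without TMM scaling (y axis, linear from 0) in muscle spots by their distance in µm from the nearest center spot (x axis, in steps up to 100, 200, 400 and over 400), 1 line per section, with bins under 20 spots left out. *Chrna1* drops from 259 and 264 to 64.4 and 63.0 within 1 spot in the E18.5 controls, and from 468 to 180 in the KO at E18.5.

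Another measure uses no center at all: the part of the variation that neighboring muscle spots share, given as a coefficient of variation. In the E18.5 controls it was 140% and 144% for *Chrne*, 85.8% and 92.1% for *Chrna1*, 67.6% and 75.5% for *Chrnd*, 47.1% and 55.7% for *Chrng* and 15.2% and 14.6% for *Chrnb1*. The summed muscle genes had 10.3% and 11.4%, near *Chrnb1*. In the E14.5 controls *Chrna1* had 37.4%, 35.8% and 27.4%. In the KO at E18.5 it was 55.6% for *Chrne*, 39.2% for *Chrna1*, 29.4% for *Chrnd* and 25.01% for *Chrng*, below both controls of its stage, while the muscle genes had 27.2%. In the β-cat cKO it was 157% for *Chrne*, 72.1% for *Chrna1*, 51.6% for *Chrnd* and 42.5% for *Chrng*. At least 1 UMI of *Chrna1* was found in 66.6% and 71.7% of muscle spots in the E18.5 controls, 87.2% in the KO and 83.9% in the β-cat cKO, and of *Chrne* in 7.37%, 8.78%, 21.5% and 3.42%, with a median of 19362 to 29861 UMIs per muscle spot. Moran's I, a score of spatial clustering that the authors deposited for all tissue spots, was 0.278, 0.406 and 0.451 for *Chrng* in the E14.5 controls, rank 174 of 16636, 134 of 17937 and 29 of 17117 genes. For *Chrne* it was between -0.0018 and 0.0034 in these sections, and 0.0929 and 0.131 in the E18.5 controls.

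Across the muscle spots of a section *Chrna1* varied with *Chrnd* (Pearson r of log-normalized values 0.471 and 0.548 in the E18.5 controls) and with *Chrng* (0.374 and 0.364) more than with *Chrnb1* (0.157 and 0.179). With *Chrne* r was 0.358 and 0.464 at E18.5 and between -0.013 and 0.041 in the E14.5 controls, where few spots held a *Chrne* UMI. The spots share a library, and depth varies between them. Over the 16 sums of center and other muscle in the 8 sections, the 3 genes of 8533 with the pattern most like *Chrna1* were *Akap11* (r 0.952), *Etv5* (0.943), which helped define the center, and *Chrnd* (0.912). For *Chrnd* they were *Prkar1a* (0.914) and *Ufsp1* (0.892), both of the center score, beside *Chrna1*. For *Chrng* they were *Sdk2* (0.959), *Tnnt2* (0.955), the cardiac and fetal troponin T, and *Iffo1* (0.942). For *Chrnb1* they were *Prkaa2* (0.952), *Dag1* (0.945), which encodes dystroglycan, and *Apobec2* (0.940). For *Chrne* they were *Calcrl* (0.920), *Wipi1* (0.906) and *Col23a1* (0.901). Among the members r was 0.783 between *Chrna1* and *Chrng*, 0.073 between *Chrna1* and *Chrnb1* and -0.178 between *Chrng* and *Chrne*. The sums share sections, and the groups set much of these values.

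Of 11 genes of the agrin and MuSK pathway tested, 1 was higher and 2 were lower in the KO at E18.5: *Musk*, the receptor kinase, rose by 0.54 (edgeR adjusted p = 0.0417), *Lrp4*, the agrin receptor, fell by 0.64 (0.0144) and *Pak1* fell by 1.47 (0.00172). That is 3 of 11 beside 26.9% of all genes, a share near the background. In the β-cat cKO 1 was lower, *Agrn* (-0.46, edgeR adjusted p = 0.0487), beside 10.0% of all genes called, and in the KO at E14.5 none was called, beside 2.80%. The median of the list was -0.10 in the KO at E18.5 and -0.12 in the β-cat cKO, against 0.0001 and -0.0055 over all genes. Of 16 other endplate genes 3 were lower in the KO at E14.5, together with *Chrne*: *Colq* (-1.71, edgeR adjusted p = 0.00882), *Ache* (-1.55, 0.00419) and *Ufsp1* (-1.33, 0.0138), of which *Ache* encodes acetylcholinesterase and *Colq* its collagen tail, and 2.80% of all genes were called there. At E18.5 the KO had 4 of the 16 higher and 2 lower, beside 26.9% of all genes, led by *Etv4* (-1.09, edgeR adjusted p = 0.00274), *Nid2* (0.99, 0.00128) and *Nrg1* (0.60, 0.0349). The β-cat cKO had 1 higher and 3 lower, beside 10.0% of all genes, led by *Colq* (-1.10, edgeR adjusted p = 0.0178), *Nrg1* (0.88, 0.0145) and *Ache* (-0.82, 0.0189).

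Of 8 myogenic E-box factors and partners tested, *Myog* (myogenin) fell by 1.15 with age (edgeR adjusted p = 7.3e-05) and was higher in the KO (0.66, 0.0219) and in the β-cat cKO (0.67, 0.0405) at E18.5. *Myf6* (MRF4), the factor of later fibers, rose by 2.06 with age (edgeR adjusted p = 2.15e-06) and was lower in the KO at both stages (-1.47, 0.0073 and -0.61, 0.0389). With age 2 of these 8 were higher and 4 lower, beside 65.7% of all genes called, and in the KO at E18.5 1 was higher and 1 lower, beside 26.9%, so that both counts were near the background. Of 12 activity-dependent regulators 10 were higher and 0 lower at E18.5 than at E14.5, beside 65.7% of all genes called in either direction, with a median of 0.74 against -0.01 over all genes, and *Camk2b*, a calcium-dependent kinase, rose by 3.83 (edgeR adjusted p = 1.05e-07). At E18.5 8 of the 12 were lower and 1 higher in the KO, beside 26.9% of all genes, with a median of -0.63, led by *Dach2* (-2.01, edgeR adjusted p = 0.0234), *Camk2b* (-1.05, 0.00389) and *Camk2g* (-0.97, 0.000875). In the β-cat cKO 4 were lower, beside 10.0% of all genes, led by *Dach2* (-2.36, edgeR adjusted p = 0.0204). Of 7 other nicotinic subunits tested, *Chrna9*, known from hair cells, rose by 5.54 with age (edgeR adjusted p = 2.2e-08), and at E18.5 was lower in the KO (-1.76, 0.000472) and higher in the β-cat cKO (0.66, 0.0244). It stood higher in the center of the E14.5 controls (1.24, edgeR adjusted p = 0.0011) and lower in that of the E18.5 controls (-0.64, 2.2e-14), and this difference passed the test (-1.88, 2.23e-06). *Chrna4* was higher in the KO at E18.5 (0.92, edgeR adjusted p = 0.00936). Of 3 assembly factors *Tmem35a*, which encodes the nicotinic receptor chaperone NACHO, fell by 1.84 with age (edgeR adjusted p = 7.07e-06) and was higher in the KO at E18.5 (0.85, 0.0124).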

How the data were processed

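Sections of 5 µm from formalin-fixed diaphragms were hybridized with a mouse transcriptome probe set and mapped to mm10 by the authors with Space Ranger 2.0.0 (3 sections) or 2.0.1 (5 sections), per the file headers, and deposited as raw UMI counts per spot and gene, with Moran's I per gene as a score that the authors deposited. Spots with at least 1000 UMIs were kept. Muscle spots were split off by Otsu's threshold on the mean log value of 9 muscle genes (scikit-image 0.26.0). The center was the top 15% by score of *Musk*, *Ache*, *Etv5*, *Prkar1a* and *Ufsp1*. Counts were summed per section and tested with edgeR 4.0.16 (quasi-likelihood, TMM, filterByExpr, Benjamini-Hochberg adjusted p under 0.05, R 4.3.3) over all 8 sections in 5 groups. Center and other muscle sums were tested with the section as a block, since both come from 1 section (r of their deviations 0.199 to 0.741 in the controls). SE is the log2 fold change over the root of F. Each fit had 3 residual degrees of freedom, and its estimate of spread was shared over genes. The smallest p-values therefore do not measure the spread of 1 gene between sections alone. The tests were tested on simulated data with 200 genes changed 2-fold: 59% were recovered for the KO at E18.5 (13943 genes) and 85% for the center at E18.5 (13709 genes). The changed genes were drawn from those with over 200 UMIs expected in the median section. All sections had 1 dispersion and 1 expression profile, so the rates need not hold for genes of low count such as *Chrne*. Named list genes were at most the 3 called with the largest change per list and comparison. Genes most like a member were the 3 with the highest Pearson r. Alternatives were DESeq2 1.42.0, other scaling, filters, centers and spots, the replicate number as a block and each control left out. Sections shared 150 to 2153 spot barcodes, which name slide positions. The members and lists were chosen with earlier results of these data known.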

Additional observations from a re-analysis of the deposited data

Results flagged for a closer look

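Effects that differed between groups by a test of the difference itself were singled out. The CaV1.1 KO effect at E18.5 exceeded that at E14.5 by 1.35 for *Chrnd*, 1.12 for *Chrng* and 3.99 for *Chrne* on the log2 scale (edgeR adjusted p = 0.0205, 0.0409 and 0.0102). The enrichment in the center was larger in E18.5 than in E14.5 controls by 1.36 for *Chrna1*, 0.94 for *Chrnd* and 2.22 for *Chrne* (edgeR adjusted p = 5.64e-06, 0.0224 and 3.93e-05). In the CaV1.1 KO at E18.5 the enrichment of *Chrne* differed from that of the controls by -1.26 (edgeR adjusted p = 0.000655). *Chrne* at E14.5 rests on 13 to 25 UMIs per control section and 3 in the KO.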

How the results depend on the processing

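Each mutant is 1 section, and adjusted p-values of the center tests varied widely with the control left out. Of the members' log2 fold changes under alternatives, 581 kept their direction and side of the threshold, 52 newly passed, 58 no longer passed and 35 reversed, over 55 results. The cause was not tested.

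Counts are members called, and the number of all genes called also moved. The replicate block called 0 of 14832 genes for the difference of KO effects, so 0 members there is no result about the members. Scaled to muscle genes, 4831 of 14832 genes were called higher and 54 lower for that difference. On the same scaling the KO at E14.5 had 5083 higher and 154 lower, and the β-cat cKO 3881 and 157. By stage, 5 became 3 in center spots, with *Chrnd* at 0.21, and scaling to muscle genes turned *Chrnb1* to -2.58 and *Chrne* to -0.33. In the KO at E14.5, 1 became 0 with DESeq2, with the replicate block and in center spots, 2 scaled to muscle genes, and 0 to 1 leaving out a control (0 without E14.5 control 3). There *Chrna1* turned to -0.27 in all spots, -0.014 in center spots and -0.054 without E14.5 control 2 (to 0.14 without others), and scaling to muscle genes turned *Chrnb1* to 0.11, *Chrnd* to 0.28 and *Chrng* to 0.41. That scaling raised the median of all genes by 0.56, and relative to it *Chrnb1*, *Chrnd* and *Chrng* stood at -0.44, -0.27 and -0.14. In the KO at E18.5, 5 became 2 in all spots, 3 with the replicate block and 3 in center spots, and *Chrnb1* turned to 0.92 scaled to muscle genes. In the β-cat cKO, 2 became 4 on that scaling, with *Chrnb1* at 0.35. The median of all genes rose by 0.52 there, and relative to it *Chrnb1* stood at -0.17. For the difference of KO effects, 3 became 5 on that scaling, 0 with the replicate block, 0 in center spots and 1 to 3 leaving out a control. *Chrnb1* there turned to 0.81 on that scaling, where the median of all genes rose by 0.86. It turned to 0.035 in all spots and 0.078 in center spots, and lay between -0.12 and 0.048 leaving out a control.

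The center by position alone is a far larger share of the muscle spots than the top 15%. The number of all genes called moved here as well. With no replicate block 0 of 14319 genes were called for the KO difference at E18.5, and by position alone 54 of 14515 were higher and 134 lower. For the stage difference position alone called 24 of 14515 higher and 45 lower. For the center at E14.5, 5 became 3 by position alone, 3 with no replicate block and 2 to 5 leaving out a control (2 without E14.5 control 1). At E18.5, 5 became 3 with a center of 25%. For the stage difference, 3 became 5 with no filter, 0 by position alone, 1 with no replicate block and 2 to 5 leaving out a control. By position alone *Chrnd* turned to -0.0077, *Chrng* to -0.36 and *Chrne* to -0.37. For the KO difference at E14.5, position alone turned *Chrna1* to 0.062, *Chrnb1* to -0.049 and *Chrne* to -2.95, the smoothed score turned *Chrne* to -0.86, a center of 10% turned *Chrnd* to -0.015 and *Chrng* to -0.024, and leaving out a control gave -0.010 to 0.26 and -0.041 to 0.21. For the KO difference at E18.5, 1 became 2 with DESeq2 size factors, 3 with no filter, 2 with a center of 10%, 0 with 25%, 4 with a smoothed score, 0 by position alone, 0 with no replicate block and 1 to 4 leaving out a control. Position alone turned *Chrna1* to 0.077, *Chrnd* to 0.29 and *Chrng* to 0.46, and the smoothed score turned *Chrnb1* to -0.030. For the β-cat cKO difference, 0 became 1 with DESeq2 size factors, 2 with no filter, 1 with DESeq2, 1 with a center of 10%, 2 with a smoothed score and 0 to 2 leaving out a control. Position alone turned *Chrna1* to 0.0004, *Chrnb1* to 0.11, *Chrng* to 0.30 and *Chrne* to -0.18. The *Chrne* share in the center of the E18.5 controls was 7.86% and 9.46% with a center of 25%.

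Replicate numbers name separate embryos, so a block on the replicate number is no pairing. The deviations of same-numbered controls had r of -0.329 and -0.321. Those of the E18.5 controls mirror each other by construction, so these r cannot show whether a batch was shared. In the center tests the block is the section, which does pair the center with the other muscle, and no replicate block there means the fit without it.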
